A study of Homo sapiens with 6 samples.

Results

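The G2 and mitosis genes are 52 genes that cells use to enter and complete division, and they were compared here between slow-cycling and rapid-cycling breast cancer cells. They were taken by gene symbol from the 58735 genes of the deposited tables, and each symbol matched 1 gene. The choice did not use their values, but it was made with earlier results of these data known. All 52 passed the filter on low counts and were among the 15881 genes tested. The cells were MDA-MB-231, an established human triple-negative breast cancer cell line, wild type by its labels, in every library. PKH26 is a red membrane dye that is shared between daughter cells at each division, so cells that divide little stay bright. All cells of both groups had taken up the dye and had then been cultured for 12 days. Slow-cycling cells (SCC, labelled PKH26hi) were the brightest 1% in a cell sorter. Rapid-cycling cells (RCC) had moderate dye by the protocol and are labelled PKH26lo in the sample characteristics. Each group had 3 libraries, described as biological replicates without saying whether the cultures were separate, so p-values measure the spread between these samples. All 6 samples were dyed, sorted cells of this 1 line.

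In G2, cyclin B and the kinase CDK1 build up and, once the CDC25 phosphatases remove inhibitory phosphates, drive the cell into mitosis. Condensins and topoisomerase II shape the chromosomes, kinesins and microtubule proteins build the spindle, and kinetochores attach chromosomes to it. The spindle checkpoint holds the anaphase-promoting complex, a ubiquitin ligase, until all chromosomes are attached, and that complex then degrades cyclin B. Many of these genes are transcribed mainly in G2. A short promoter element, the CHR, is bound by the MuvB core, which represses them in resting cells as part of the DREAM complex and activates them in G2 together with B-MYB and FOXM1. Lists of this kind are widely used to score the cell cycle phase of single cells.

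The promoters are shown first, since their sequence played no part in the choice of the genes. RefSeq windows on GRCh38.p14, from 250 bases before to 50 bases after a start site, were present for 43 of the 52 genes, with 56 windows in all. The 9 others were HMGB2, UBE2C, BIRC5, TPX2, PIMREG, AURKA, ANP32E, TTK and CDCA2. Stretches of 6 promoters and 30-base sites of 2 more are printed 5′ to 3′ in the direction of the gene. Capitals mark TTTGAA (the CHR consensus), TTTAAA (a CHR-like variant) and CCAAT (the motif of NF-Y, a general activator), each on either strand, so that TTCAAA and ATTGG are the reverse complements. Positions count from the start site as 0, and negative positions lie before it. MKI67 (chr10:128126424-128126583, minus strand) and CDC20 (chr1:43358821-43358954, plus strand) are 2 long-used proliferation genes. CKS2 (chr9:89311035-89311194, plus strand), KIF11 (chr10:92592970-92593129, plus strand) and HJURP (chr2:233854567-233854695, minus strand) show TTTGAA together with CCAAT. LBR (chr1:225428926-225428981, minus strand) is shown as a promoter without TTTGAA, and PLK1 (chr16:23678848-23678877, plus strand) and KIF23 (chr15:69414282-69414311, plus strand) as the sites of 2 genes described below. These 2 sites lie before the RefSeq start used here, but all 30 bases of each lie under exons annotated in GENCODE release 29. The 6 other stretches hold no such exon bases.
MKI67: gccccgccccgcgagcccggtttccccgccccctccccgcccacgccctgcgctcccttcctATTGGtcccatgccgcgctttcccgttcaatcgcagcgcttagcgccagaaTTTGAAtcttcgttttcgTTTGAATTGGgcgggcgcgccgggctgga
CDC20: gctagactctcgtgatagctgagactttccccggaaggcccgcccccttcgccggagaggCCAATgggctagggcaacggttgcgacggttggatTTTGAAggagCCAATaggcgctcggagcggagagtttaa
CKS2: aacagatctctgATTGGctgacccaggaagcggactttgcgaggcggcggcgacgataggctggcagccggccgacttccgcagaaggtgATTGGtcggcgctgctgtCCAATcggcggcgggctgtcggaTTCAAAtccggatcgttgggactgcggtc
KIF11: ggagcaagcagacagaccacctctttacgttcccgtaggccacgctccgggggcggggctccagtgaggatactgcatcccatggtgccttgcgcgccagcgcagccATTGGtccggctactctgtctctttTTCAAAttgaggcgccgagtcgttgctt
HJURP: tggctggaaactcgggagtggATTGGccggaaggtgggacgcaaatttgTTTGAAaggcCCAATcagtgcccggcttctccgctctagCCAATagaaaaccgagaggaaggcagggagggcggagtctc
LBR: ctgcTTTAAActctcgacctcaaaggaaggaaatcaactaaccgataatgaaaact
PLK1: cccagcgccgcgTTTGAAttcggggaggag
KIF23: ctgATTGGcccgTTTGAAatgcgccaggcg

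In MKI67 TTTGAA began at positions -47 and -29, and an ATTGG began on the last base of the second of them. The match in CKS2 began at -29, that in KIF11 at -28 and that in PLK1 at -29, whereas those of CDC20 and KIF23 lay further out, at -65 and -55. Within the printed stretches, which are shorter than the windows, HJURP had its TTTGAA at -111, with CCAAT motifs at -139, -101 and -72. The stretch of LBR held TTTAAA at -156 and neither of the other motifs.

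Over all 56 windows, TTTGAA was present in 34 (60.7%), against 15.2% of the 35116 windows of all genes and 12.4% of the 22198 windows of protein-coding genes. CCAAT was present in 66.1% of the genes' windows and 34.6% of all windows. Both motifs stood together in 48.2% and 5.9%. TTTAAA was present in 25.0% against 12.2%. TTTGAA was most frequent in the 50 bases before the start, where 26.79% of the genes' windows held it against 2.56% of all windows. CCAAT peaked between positions -100 and -51, with 44.64% against 12.94%. These are matches to letters in a window and were not tested as sites. The 31 genes with TTTGAA had a median log2 fold change of SCC over RCC of 0.014 (range -0.348 to 0.213). The 12 without it had a median of -0.044 (range -0.267 to 0.178). The ranges overlap, the values come from all 6 libraries without a correction for GC content, and the difference was not tested.

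**Figure D1:**
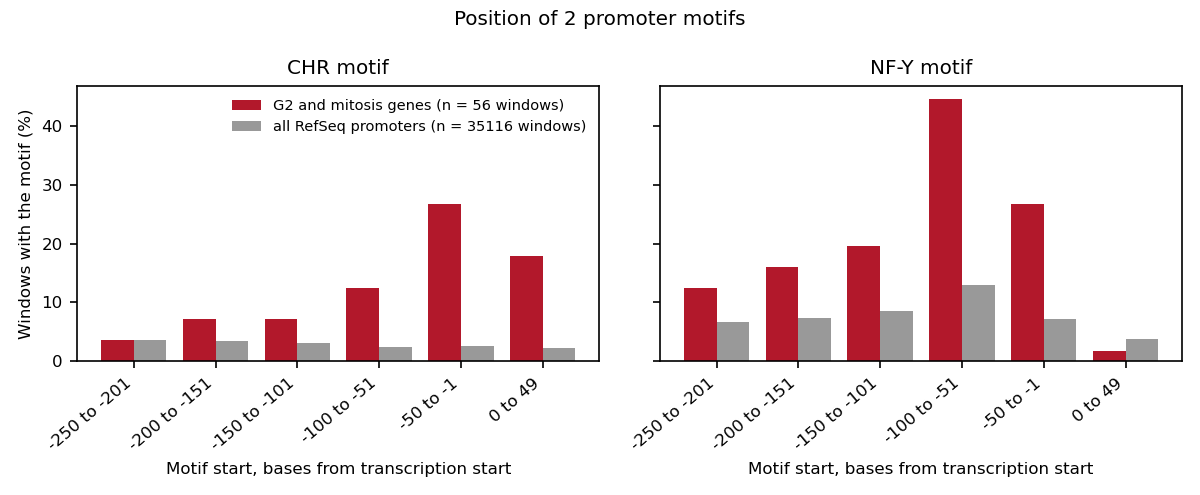
Share of promoter windows (y axis, %) that hold a CHR motif (left) or an NF-Y motif (right) in each 50-base bin from the start site (x axis, bases). Windows of the G2 and mitosis genes (n = 56) and of all genes (n = 35116) are shown side by side, and the genes' windows stand highest between -50 and -1 for the CHR motif (26.79%) and between -100 and -51 for the NF-Y motif (44.64%).

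Summed counts per library were 17655855 to 27831824. The line's mesenchymal markers (VIM, CD44, EGFR, FN1, AXL and CAV1) were present in every library and summed to 618 to 622 FPKM in SCC and 593 to 627 FPKM in RCC. FPKM is the deposited count per gene length and library size, and 1 of these 6, FN1, was called higher in SCC (log2 fold change 0.49, edgeR quasi-likelihood test, adjusted p = 0.00167). The 8 luminal and epithelial markers summed to 126 to 137 FPKM in SCC and 110 to 117 FPKM in RCC. KRT8 and KRT18 made up nearly all of that sum, none of the 5 that could be tested was called, and the 3 others, ESR1, PGR and CDH1, reached at most 0.0698 FPKM. The 7 leukocyte markers summed to at most 0.98 FPKM in any library and the 4 endothelial markers to at most 0.601 FPKM, with PTPRC (CD45) at no more than 0.211 FPKM and CD3E at no more than 1 count in a library. SCC replicate 1 stood apart from the other libraries. The chi-square per degree of freedom between its counts and those of SCC replicates 2 and 3 was 28.5 and 21.4, against 3.28 to 4.24 for the other pairs within a group. Its deviation moved with GC content, the share of G and C bases in a gene's exons, so values without it are given for the genes described library by library where it moves the fold change by over 1.5 times. A GC offset, a correction fitted to each library's own GC trend over all genes, was also applied. The part of these differences in the results was not tested, except where a value without that library or with a GC correction is given.

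Relative to all RNA counted in a library, the G2 and mitosis genes were present at nearly equal levels in slow-cycling and rapid-cycling cells. The amount of RNA per cell was not measured. Their counts summed to 11304, 11871 and 11788 CPM (counts scaled to a common library size, with totals adjusted by the trimmed mean of M values) in SCC replicates 1 to 3 and to 11349, 12005 and 11441 CPM in RCC replicates 1 to 3. The groups overlapped, and the means of 11654 ± 306 and 11598 ± 355 CPM (SD, n = 3 each) differed by 0.483%. None of the 52 genes was called higher or lower in SCC (edgeR quasi-likelihood test, Benjamini-Hochberg over 15881 genes, adjusted p under 0.05). Of all tested genes, 1.69% were called higher and 0.378% lower, so a count of 0 among 52 genes lies close to the background. Without SCC replicate 1, KIF23 was called higher and G2E3 and LBR lower, with values given below. In bulk libraries a smaller share of dividing cells and less RNA per dividing cell cannot be told apart.

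Before adjustment, 5 of the genes passed p under 0.05 with SCC higher (9.62%, against 11.4% of all tested genes) and 3 with SCC lower (5.77%, against 8.27%). These counts moved when 1 library was omitted. The higher count was 0 when RCC replicate 1 or RCC replicate 3 was omitted, 2 without SCC replicate 3, 3 without SCC replicate 2 or RCC replicate 2, and 8 without SCC replicate 1 (background 10.3%). The lower count was 7 without SCC replicate 2 (background 11.9%) and 2 or 3 when any other library was omitted. For the counts printed here without a background, the share of all tested genes was not computed, so nothing is read from them. With the GC offset and SCC replicate 1 left out, 15 of the 52 passed with SCC higher, a larger share than the 9.87% of all tested genes, and 3 with SCC lower (background 9.27%). That setting was added after the data were seen. The groups did not overlap in CPM with SCC higher for 7 genes, CDCA3, PLK1, BIRC5, TUBB4B, UBE2C, TACC3 and RANGAP1, which is 13.5% against a background of 14.4%. They did not overlap with SCC lower for G2E3, LBR, HMMR and TMPO, which is 7.69% against 13.4%. DESeq2 called 1 gene, G2E3, lower (1.07% of all tested genes), and limma on log2(FPKM + 1) called none of the 52 (1.33% of all tested genes in either direction).

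Log2 fold changes of SCC over RCC ran from -0.35 for G2E3 to 0.21 for RANGAP1, with 27 above 0 and 25 below. With upper-quartile scaling 21 were above 0 and 31 below. Their median was 0.008, against 0.003 over all tested genes. The difference was under 0.2 in size for 48 of the 52 genes. The 95% interval included 0 for 44 genes and lay within 1.5-fold in either direction for all 52, as it did for 61.8% of all tested genes. These intervals come from standard errors of 0.058 to 0.12, with a median of 0.076 against 0.12 over all tested genes. A 1.5-fold difference was thus outside the interval of each gene. Smaller differences inside the intervals were not excluded by this fit, with 3 libraries in each group. Differences under 1.5-fold of KIF23, LBR and G2E3 were called in other fits, as given below.

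**Figure D2:**
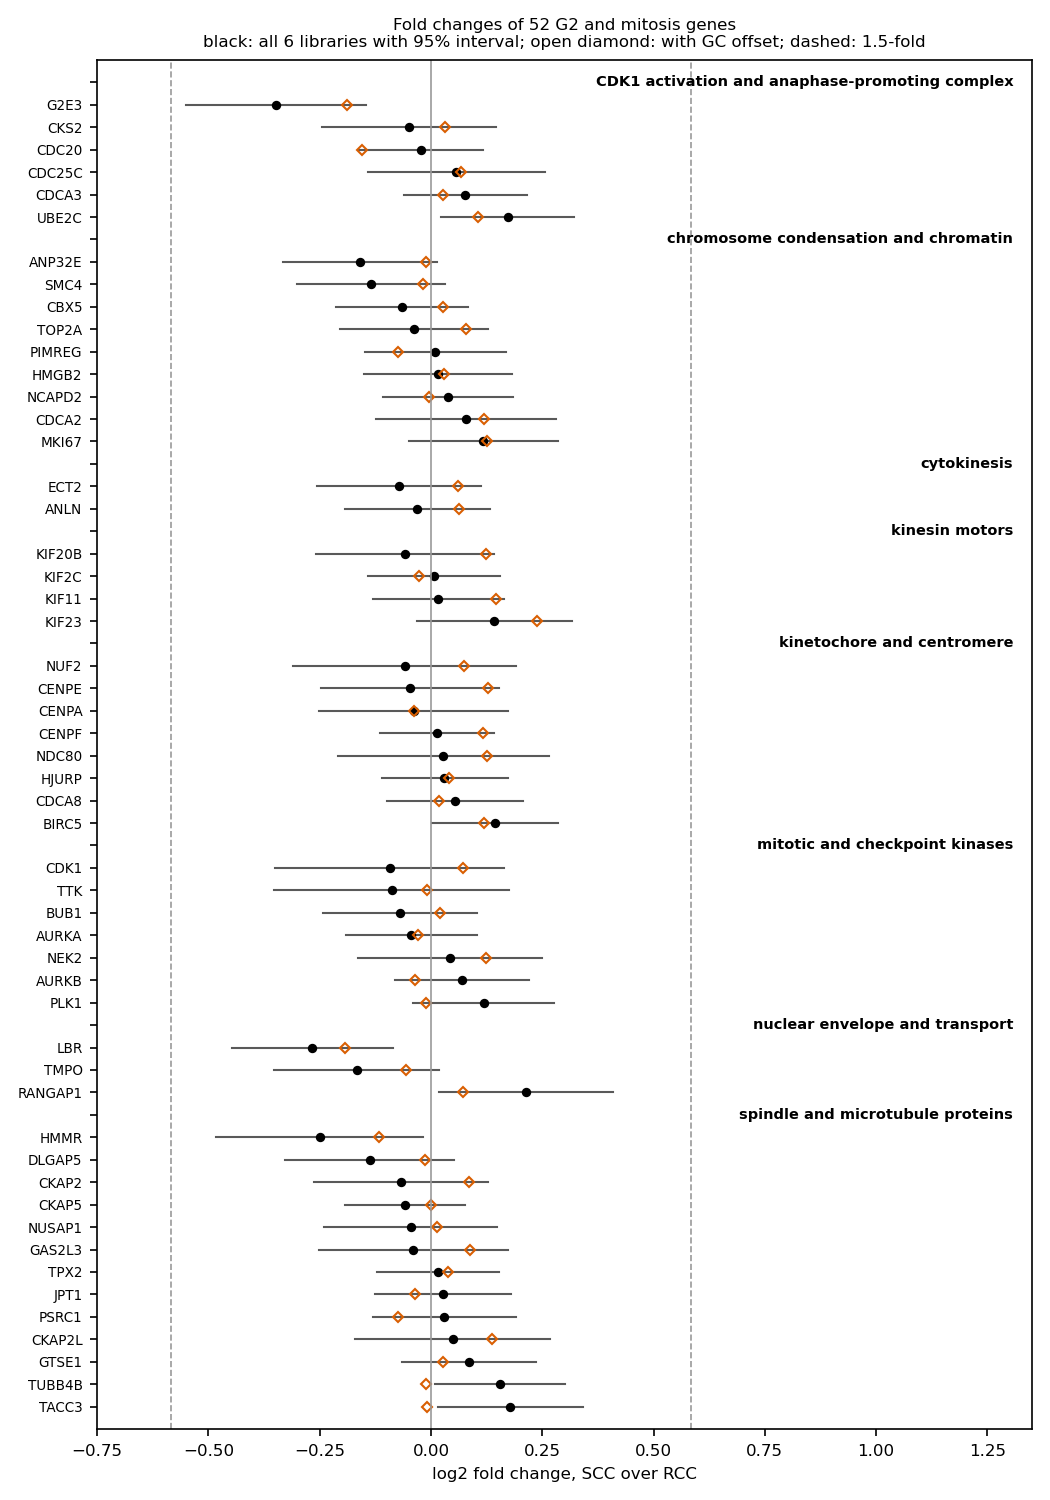
Fitted log2 fold change of SCC over RCC (x axis) for each of the 52 genes (y axis, grouped by role), with 95% intervals, from all 6 libraries. Open diamonds are the values with a GC offset and dashed lines mark 1.5-fold. All intervals lie between the dashed lines, and values run from -0.35 for G2E3 to 0.21 for RANGAP1.

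Per gene length, TUBB4B was the most abundant of the 52, at 425 ± 23.1 FPKM in SCC and 384 ± 16.8 FPKM in RCC (SD, n = 3 each). UBE2C, TOP2A and HMGB2 came next, with means over the 6 libraries of 153, 147 and 145 FPKM. Their order was not the same in both groups, as UBE2C measured 161 ± 1.56 FPKM in SCC and 144 ± 10.5 FPKM in RCC (SD, n = 3 each) and TOP2A 144 ± 13.5 FPKM in SCC and 149 ± 8.01 FPKM in RCC (SD, n = 3 each). CKS2, TPX2 and CDC20 followed at 119, 108 and 105 FPKM. At the other end were CDC25C at 6.37 FPKM, HMMR at 7.03 FPKM, GAS2L3 at 7.9 FPKM and G2E3 at 8.67 FPKM.

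Among the kinases, the 7 genes had log2 fold changes from -0.093 to 0.12, and none was called. CDK1, the kinase that starts mitosis, was measured at 189, 269 and 261 CPM in SCC replicates 1 to 3 and 248, 272 and 246 CPM in RCC replicates 1 to 3. SCC replicate 1 was the low library here, and the other SCC libraries lay inside the RCC range. Its log2 fold change was -0.093 (95% interval -0.35 to 0.16, adjusted p = 0.676), and 0.054 without SCC replicate 1 and 0.072 under the GC offset. PLK1, which acts at centrosomes, kinetochores and in cytokinesis, was at 189.5, 164 and 168 CPM in SCC and 158, 163 and 159.9 CPM in RCC. Its groups did not overlap, with SCC higher, and the fold change of 0.12 (SE 0.072, adjusted p = 0.375) was 0.052 without SCC replicate 1 and -0.011 under the GC offset. Part of the exons of PLK1 (11.62% of their bases) overlaps another gene. AURKA, the kinase of spindle poles, was at 169, 185 and 178 CPM in SCC and 178, 192 and 179 CPM in RCC. AURKB, the kinase of the chromosomal passenger complex, was at 117, 106 and 109 CPM in SCC and 108, 107 and 102 CPM in RCC. Both Aurora kinases overlapped between groups, with log2 fold changes of -0.044 and 0.070, which were -0.010 and 0.030 without SCC replicate 1. The checkpoint kinases BUB1 and TTK and the centrosome kinase NEK2 had values of -0.070, -0.088 and 0.042.

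The regulators of CDK1 and of the anaphase-promoting complex held the lowest gene of the list, while their median was 0.017. CDC20, the activator through which the complex recognises its targets, was at 222, 209 and 210.3 CPM in SCC and 211, 218 and 224 CPM in RCC. The groups overlapped (log2 fold change -0.023, 95% interval -0.16 to 0.12, adjusted p = 0.859), and the value was -0.052 without SCC replicate 1 and -0.16 under the GC offset. UBE2C, the ubiquitin-conjugating enzyme of the same complex, was at 211, 206 and 210.1 CPM in SCC and 174, 198 and 185 CPM in RCC. All 3 SCC libraries lay above all RCC libraries, and the log2 fold change of 0.17 (95% interval 0.022 to 0.32) did not pass the adjusted threshold (adjusted p = 0.204). It was 0.17 without SCC replicate 1 and 0.10 under the GC offset. G2E3, a ubiquitin ligase with a G2-restricted transcript, was at 62.5, 80.4 and 72.2 CPM in SCC and 88.8, 90.0 and 94.8 CPM in RCC. SCC was lower in every library, with replicate 1 lowest, and the fold change of -0.35 (95% interval -0.55 to -0.15) had an adjusted p of 0.0834. The CDK1 subunit CKS2, the phosphatase CDC25C and CDCA3, which helps degrade the CDK1 inhibitor WEE1, had log2 fold changes of -0.049, 0.057 and 0.077.

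Of the 9 genes for chromosome condensation and chromatin, none was called and the median was 0.009. MKI67, which coats mitotic chromosomes and is the Ki-67 antigen used to mark cycling cells, was at 597, 501 and 509 CPM in SCC and 485, 495 and 502 CPM in RCC. SCC replicate 1 was the highest library, and SCC replicate 2 lay within the RCC range. The log2 fold change was 0.12 (95% interval -0.050 to 0.28, adjusted p = 0.401) with all libraries, 0.033 without SCC replicate 1 and 0.12 under the GC offset. TOP2A, the topoisomerase that untangles sister chromatids, was at 842, 987 and 979.5 CPM in SCC and 935, 1014 and 934 CPM in RCC. The groups overlapped, and SCC replicate 1 was the lowest library (log2 fold change -0.038, adjusted p = 0.801). The sign turned without that library (0.034) and with the GC offset (0.079). ANP32E, a chaperone that removes the histone variant H2A.Z, was at 257, 298 and 286 CPM in SCC and 324, 329 and 287 CPM in RCC. Its fold change was -0.16, and -0.10 without SCC replicate 1 and -0.011 under the GC offset. The condensin subunits SMC4 and NCAPD2 had values of -0.14 and 0.039, the DNA-bending protein HMGB2 one of 0.016 and the heterochromatin protein CBX5 one of -0.064. PIMREG, a mitotic regulator, had 0.009 and CDCA2, a phosphatase subunit that acts at mitotic exit, 0.078. SMC4 shares 18.46% of its exon bases with another gene.

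**Figure D3:**
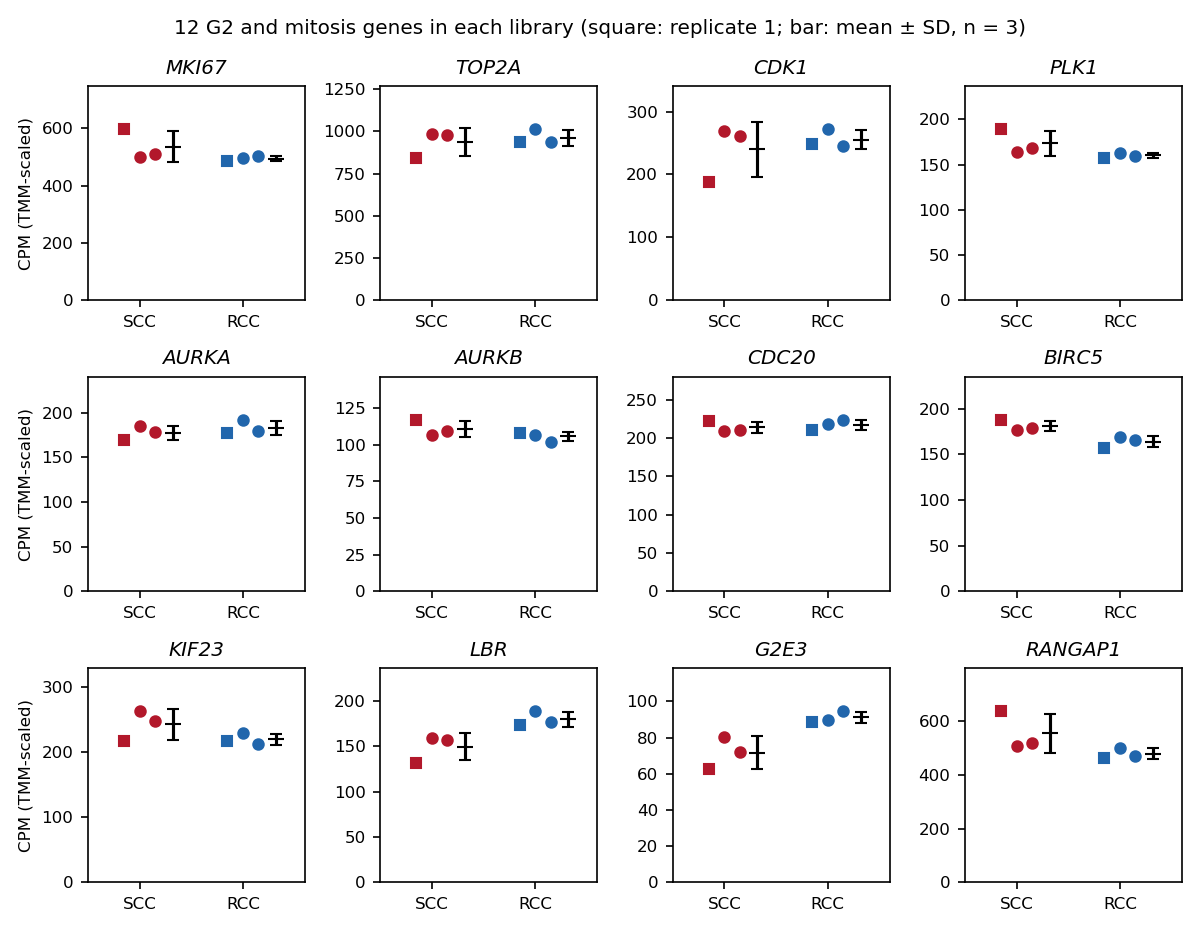
CPM (y axis, from 0) of 12 of the genes in each library of SCC and RCC (x axis), with squares for replicate 1, circles for replicates 2 and 3, and bars for mean ± SD (n = 3). SCC replicate 1 is the highest library for MKI67, PLK1, AURKB, BIRC5 and RANGAP1 and the lowest for TOP2A, CDK1, AURKA, LBR and G2E3. The groups of BIRC5, LBR, G2E3, PLK1 and RANGAP1 do not overlap.

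The 8 kinetochore and centromere genes lay between -0.059 and 0.14. BIRC5 (survivin), the subunit that brings the chromosomal passenger complex to centromeres, was at 188, 177 and 179 CPM in SCC and 157, 169 and 166 CPM in RCC. Every SCC library was above every RCC library (log2 fold change 0.14, 95% interval 0.002 to 0.29), but the adjusted p was 0.249. CDCA8, another subunit of that complex, was at 0.055. NDC80 and NUF2, partners in the complex that grips microtubules, had values of 0.028 and -0.059. The centromeric histone CENPA and its chaperone HJURP had -0.038 and 0.030, the kinetochore motor CENPE -0.047 and the kinetochore protein CENPF 0.014.

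Of the 4 kinesin motors, KIF23 had the highest value. KIF23, the motor of the centralspindlin complex in the midzone of the dividing cell, was at 217, 264 and 249 CPM in SCC and 218, 229 and 214 CPM in RCC. SCC replicates 2 and 3 were above all RCC libraries, and SCC replicate 1 lay within the RCC range (log2 fold change 0.14, 95% interval -0.032 to 0.32, adjusted p = 0.336). KIF11, which pushes spindle poles apart, had a value of 0.016, KIF2C, which shortens microtubules at centromeres, one of 0.007, and KIF20B, which acts in cytokinesis, one of -0.059. The 2 cytokinesis genes, the RHOA exchange factor ECT2 and the actin-binding anillin gene ANLN, were at -0.071 and -0.031.

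The 13 spindle and microtubule genes had a median of 0.016 and held members near both ends of the list. TACC3, which cross-links spindle microtubules, was at 248, 218 and 218 CPM in SCC and 195, 213 and 198 CPM in RCC. TUBB4B, a beta-tubulin, was at 948, 846 and 919 CPM in SCC and 778, 838 and 823 CPM in RCC. In both genes all SCC libraries lay above all RCC libraries, and the log2 fold changes of 0.18 and 0.15 (adjusted p = 0.221 and 0.236) were 0.11 and 0.12 without SCC replicate 1 and -0.009 and -0.012 under the GC offset. HMMR, a microtubule and hyaluronan-binding protein of spindle poles, was at 22.0, 28.9 and 25.4 CPM in SCC and 29.8, 30.5 and 30.2 CPM in RCC. SCC was lower in every library, with replicate 1 lowest (log2 fold change -0.25, adjusted p = 0.228). The value was -0.15 without SCC replicate 1 and -0.12 under the GC offset. DLGAP5, which stabilises spindle microtubules near chromosomes, was at 208, 264 and 249.8 CPM in SCC and 265, 269 and 258 CPM in RCC, and its groups overlapped (log2 fold change -0.14, -0.041 without SCC replicate 1 and -0.014 under the GC offset). The other 9, NUSAP1, TPX2, CKAP2, CKAP2L, CKAP5, GTSE1, JPT1, PSRC1 and GAS2L3, lay between -0.067 and 0.085. NUSAP1 shares 62.16% of its exon bases with a gene on the same strand. How reads shared by the 2 genes were counted is not known, so its level is uncertain.

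The 3 genes of the nuclear envelope and nuclear transport lay near both ends of the list. RANGAP1, which drives the RAN cycle and sits at kinetochores in mitosis, was at 638, 506 and 520.2 CPM in SCC and 464, 501 and 470.3 CPM in RCC. LBR, the lamin B receptor of the inner nuclear membrane, was at 132, 159 and 157 CPM in SCC and 173, 189 and 176 CPM in RCC. TMPO, a lamina-associated protein gene, was at 337, 428 and 401 CPM in SCC and 432, 444 and 434 CPM in RCC. In RANGAP1 every SCC library was above the RCC libraries, with replicate 1 well above the rest (log2 fold change 0.21, 95% interval 0.018 to 0.41, adjusted p = 0.221). The fold change of RANGAP1 was 0.10 without SCC replicate 1 and 0.072 under the GC offset. In LBR and TMPO every SCC library was below the RCC libraries, with log2 fold changes of -0.27 (95% interval -0.45 to -0.085, adjusted p = 0.126) and -0.17 (95% interval -0.35 to 0.019, adjusted p = 0.292). That of TMPO was -0.074 without SCC replicate 1 and -0.056 under the GC offset, and the values of LBR are given below.

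The order of the fold changes followed the GC content of the genes. Median exonic GC was 42.8% for the 52 genes, from 34.1% in KIF20B to 60.6% in TACC3, and 48.0% for all tested genes. Over the 52 genes, fold change and GC content had a Pearson r of 0.674 and a Spearman rho of 0.719. Genes here share the same 6 libraries and are not independent replicates, so the correlation is a description. Over all tested genes with a GC value, r was 0.358. Of the 26 genes below the median GC, 6 had a fold change above 0, and of the 26 at or above it, 21 did.

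SCC replicate 1 showed the same order. It was the lowest of the 6 libraries for 28 genes, 21 of them among the 26 low-GC genes, and the highest for 13, all among the high-GC genes. Its deviation from the mean of all libraries correlated with GC content at 0.852 over the 52 genes and at 0.58 over all tested genes. Without it, r between fold change and GC was 0.265, and 18 of the 26 low-GC genes and 19 of the 26 high-GC genes were above 0. The GC offset gave r = -0.264, with 18 and 13 genes above 0. The median fold change was 0.036 without the library and 0.027 with the offset. RCC replicate 2 was the highest library for 22 genes, 15 of them low-GC genes.

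**Figure D4:**
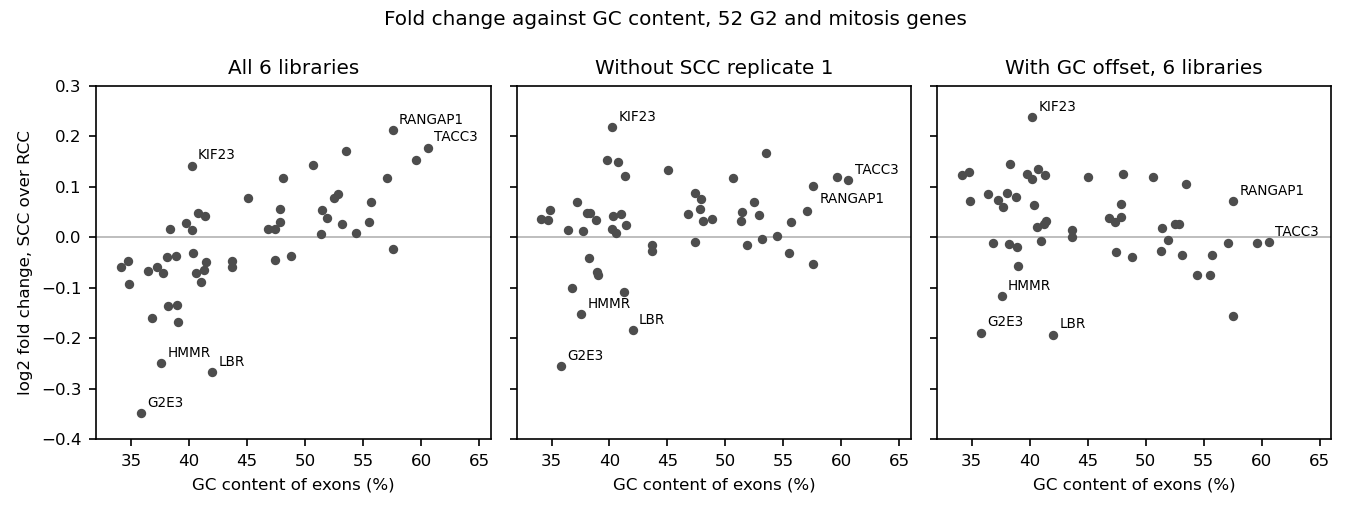
Log2 fold change of SCC over RCC (y axis) against GC content of the exons (x axis, %) for the 52 genes (points), in 3 panels: all 6 libraries, SCC replicate 1 left out, and the GC offset applied. Pearson r is 0.674, 0.265 and -0.264 in that order, and KIF23, LBR and G2E3 stay on their side of 0 in each.

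**Figure D5:**
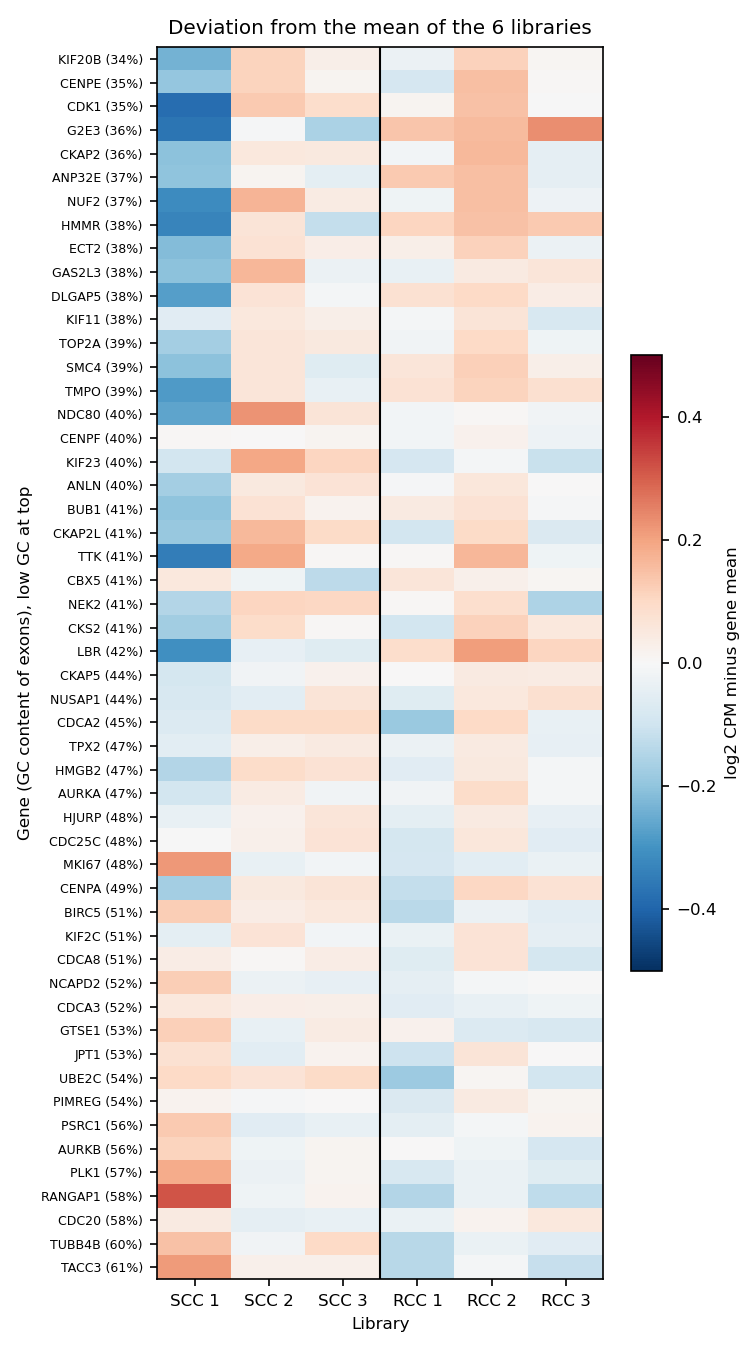
Log2 CPM of each gene (rows, ordered from low GC at the top to high GC at the bottom) in each library (columns), as the deviation from that gene's mean over the 6 libraries (colour). SCC replicate 1 runs from low values at the top to high values at the bottom, with a median deviation of -0.20 over the low-GC genes and 0.05 over the high-GC genes.

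The calls of KIF23 (ENSG00000137807, chr15:69414246-69448427, plus strand), LBR (ENSG00000143815, chr1:225401502-225428925, minus strand) and G2E3 (ENSG00000092140, chr14:30559123-30620063, plus strand, all in GENCODE 29 on GRCh38) differed with this library or with the offset. KIF23 was called higher with the GC offset (log2 fold change 0.24, edgeR adjusted p = 0.00731) and without SCC replicate 1 (0.22, adjusted p = 0.00437). The backgrounds of genes called higher in those fits were 3.19% and 3.93%. LBR was called lower with the offset (-0.19, adjusted p = 0.0435) and without that library (-0.18, adjusted p = 0.0234), against backgrounds of 1.47% and 2.1% called lower. G2E3 was called lower without SCC replicate 1 (-0.26, adjusted p = 0.00748), and had -0.19 with the offset (adjusted p = 0.0617). It was also called lower without SCC replicate 2, where 1.59% of all genes were. With every gene of at least 1 count in the fit, G2E3 and LBR were called lower and none higher (backgrounds 0.838% lower and 2.65% higher). KIF23 (40.2% GC), LBR (42.0%) and G2E3 (35.8%) are among the 26 low-GC genes. The median fold change of those 26 was -0.062 with all 6 libraries and 0.068 with the GC offset. These 3 genes kept their sign in all 17 alternatives computed, as did 15 others, while the sign of 34 genes differed in at least 1 alternative.

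When the offset was used and SCC replicate 1 also left out, an alternative added after the data were seen, 2 genes were called higher and 2 lower. They were KIF23 (log2 fold change 0.26, edgeR adjusted p = 8.91e-05), NDC80 (0.20, adjusted p = 0.0197), LBR (-0.15, adjusted p = 0.0317) and G2E3 (-0.18, adjusted p = 0.0373). Backgrounds were 3.99% higher and 2.47% lower. With 2 of 52 genes called each way, the counts of called genes lay close to these backgrounds. Before adjustment, as given above, 15 of the 52 passed p under 0.05 with SCC higher (background 9.87%) and 3 with SCC lower (background 9.27%). In this fit 37 genes were above 0 and 15 below. The offset together with the replicate number as a block called KIF23 higher and LBR lower, against 3.81% and 2.68% of all genes.

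A further 80 genes of the same processes, cyclins A, B and F, mitotic entry regulators, checkpoint and anaphase genes, kinetochore, spindle, condensin and cytokinesis genes, were all tested. None was called in either direction. Before adjustment 8 passed p under 0.05 with SCC higher (background 11.4%) and 3 with SCC lower (8.27%), and the median log2 fold change was -0.044. Omitting 1 library gave 1 to 13 higher and 1 to 13 lower, with 13 each way without SCC replicate 2 (background 11.9% lower). There were 7 higher without SCC replicate 1 (background 10.3%), 1 higher and 4 lower without RCC replicate 1, and 1 each way without RCC replicate 3. For the other counts with 1 library omitted, the share of all tested genes was not computed, so nothing is read from them. Of the 80, 25 were above 0 and 55 below, and with the GC offset 41 and 39. The 17 further kinetochore and centromere genes, ran from -0.37 to 0.27, with 2 above 0, and with 6 above 0 when SCC replicate 1 was omitted and also with the GC offset. The 8 further kinesins, with 5 above 0, ran from -0.069 to 0.19. Of the 4 cyclins, CCNA2, CCNB1 and CCNB2 were at -0.12, -0.11 and -0.14, and cyclin F (CCNF) at 0.19, none of them called. Under the GC offset CCNA2, CCNB2 and CCNF were at -0.038, -0.10 and 0.055. Without SCC replicate 1 these 3 were at -0.091, -0.061 and 0.080. CCNB1, the cyclin partner of CDK1, was at 188, 215 and 203 CPM in SCC and 213, 224 and 216 CPM in RCC, with overlapping groups (log2 fold change -0.11, adjusted p = 0.388, and -0.059 without SCC replicate 1 and -0.061 under the GC offset).

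The 3 of the 80 with the smallest p were CENPK, CDC25B and FAM83D. CENPK, an inner kinetochore protein, was at 34.6, 46.7 and 40.2 CPM in SCC and 52.9, 51.2 and 52.6 CPM in RCC (log2 fold change -0.37, adjusted p = 0.0978). CDC25B, a phosphatase that starts CDK1 activation, was at 166, 149 and 150.3 CPM in SCC and 134, 136 and 136 CPM in RCC (0.20, adjusted p = 0.154). FAM83D, which recruits a kinase to the spindle, was at 126, 131 and 124 CPM in SCC and 111, 115 and 109.6 CPM in RCC (0.18, adjusted p = 0.164). Of the 80 genes, the groups of 11 did not overlap with SCC higher and those of 8 with SCC lower (backgrounds 14.4% and 13.4%). CENPK, CDC25B and FAM83D were among them, which adds no separate evidence, since they were picked by p from these same data. With the GC offset their values were -0.23, 0.034 and 0.15, and 1 gene of the 80 was called, SPC24, a subunit of the NDC80 complex, lower at -0.29 (adjusted p = 0.0214). Without SCC replicate 1, CENPK (-0.27) and SPC24 (-0.29) were called lower and FAM83D (0.19) higher.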

How the data were processed

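Total RNA of 6 libraries was read as gene counts. Per the submitters' processing notes, HISAT2 2.0.5 and featureCounts 1.5.0-p3 were used; the build, annotation, read filters and use of strand are not given in the sources used here. The deposited counts were whole numbers, not normalized. The deposited FPKM values were counts per gene length and library size. Gene identifiers and positions equalled GENCODE release 29, whose exons gave GC content and overlaps. Since strand use is unknown, the 21 of 52 genes that share exon bases with another gene are uncertain, as are the 14 with named pseudogenes.

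The 52 genes and all lists were chosen with earlier results of these data known. The count test was that of edgeR 4.0.16, run in R 4.3.3 (filterByExpr at a minimum count of 10, TMM, glmQLFit on group, two-sided quasi-likelihood test, Benjamini-Hochberg over 15881 genes, called under 0.05). The GC offset was a lowess fit per library (span 0.3). Alternatives used DESeq2 1.42.0, limma 3.58.1 on log2(FPKM + 1) or log2(FPKM + 0.1) with at least 1 FPKM in 3 libraries, other scalings and filters, a replicate block, and fits that each omit 1 library. The scripts were tested on simulated data. Samples were grouped by title.

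Values in every library were given for 8 fixed genes (MKI67, CDK1, PLK1, AURKA, AURKB, CDC20, TOP2A and BIRC5), the 6 highest and 6 lowest fold changes, genes called in the fit or with the GC offset, and, of the 80 further genes, the 3 with the smallest p. The cyclins and SPC24 were added after their values were seen.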

Additional observations from a re-analysis of the deposited data

How the results depend on the processing

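Calls were few under every setting. KIF23, LBR and G2E3 were among 18 of the 52 genes that kept their direction under all 17 alternatives. NDC80, called under 1 of the alternatives, changed sign in 2 others. All alternatives reuse the same libraries, so a kept direction adds no separate evidence. PKMYT1, called higher with a filter of at least 1 count, was at -0.074 with the GC offset and SCC replicate 1 left out. Of the 52 genes, none was called higher or lower with all libraries. The GC offset called 1 higher and 1 lower, the replicate block with the GC offset 1 and 1, DESeq2 0 and 1, and a filter of at least 1 count 0 and 2. Leaving out each library in turn gave 0 to 1 called higher and 0 to 2 called lower, with SCC replicate 1 the library behind the highest counts (1 and 2) and SCC replicate 2 giving 0 and 1. The GC offset with SCC replicate 1 left out, chosen after seeing the data, gave 2 and 2. Of the 80 further genes, also with none called at first, a filter of at least 1 count gave 3 higher (FZR1, INCENP and PKMYT1, against 2.65% of all genes) and 1 lower (CENPK), DESeq2 0 and 1 (CENPK), and the GC offset 0 and 1 (SPC24). The replicate block with the GC offset gave 0 and 1, each library left out 0 to 1 and 0 to 2 (1 and 2 when SCC replicate 1 was omitted, 0 and 1 for SCC replicate 2), and the GC offset with SCC replicate 1 left out 2 (FAM83D and KIF18A) and 1 (SPC24). Filters change how many genes are tested, and the cause of the other differences was not tested.

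The samples share only a replicate number: deviations of same-numbered libraries correlated at -0.009, 0.025 and -0.079. The replicate block alone called 0 of the 52 genes higher and 0 lower, with a median log2 fold change of 0.009. The median stayed between -0.04 and 0.051 over all alternatives. With 3 libraries in each group, standard errors of 0.058 to 0.12 limit what the fit of all 6 libraries without a GC offset can resolve.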
